A study of Mus musculus with 30 samples.

Results

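The apelin receptor gene Aplnr was followed across 30 mouse heart libraries together with 9 genes of the endothelium and its growth factors. These were Apln, Pecam1, Cdh5, Kdr, Flt1, Tek, Tie1, Vwf and Vegfa. They are 10 of the 55487 gene identifiers in the deposited count table, and each symbol matched 1 row. Aplnr was chosen on its fall in the libraries of overloaded knockouts, so its differences in comparisons with those libraries are a description without a test. The other 9 genes were chosen by name as endothelial genes, receptors and ligands.

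Endothelial cells line the vessels and chambers of the heart and hold to each other through junction proteins such as those made from Cdh5 and Pecam1. They read the growth factor encoded by Vegfa through the receptors encoded by Kdr and Flt1, and angiopoietins through the receptor encoded by Tek with its relative from Tie1. Apelin, the peptide made from Apln, acts on the G protein-coupled receptor made from Aplnr. In the heart this receptor is known from endothelial cells of veins, capillaries and the endocardium, and the pathway is known for vessel growth, vessel tone and contractility.

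Hearts were taken at 8 weeks, either from mice with transverse aortic constriction (TAC), in which a clip narrows the aorta and loads the left ventricle with pressure, or from mice with sham surgery. In the floxed cohort, mice with floxed Cpt1a alleles served as controls (4 sham and 4 TAC libraries) for mice with a cardiac specific Cpt1a knockout (4 sham and 4 TAC libraries). Cpt1a encodes an enzyme that carries long-chain fatty acids towards mitochondrial oxidation. In the AAV9 cohort, C57Bl/6 mice received PBS (3 sham and 3 TAC libraries) or AAV9.Cpt1a, a viral vector in which the cardiac troponin T promoter drives Cpt1a (4 sham and 4 TAC libraries). The vector was set against PBS and not against an empty virus. The driver of the deletion, the background strain of the floxed mice, ages and sexes are not given in the sources used here. Clips of 0.016 or 0.018 inch were used, without a record of which mouse had which. Group names below follow the genotype and treatment labels. The titles of the 4 knockout TAC libraries name both TAC and sham and no knockout, while their genotype, treatment and column names give knockout and TAC, which was used. Nothing states whether libraries of a group came from separate animals, so p-values measure the spread between libraries.

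Total counts ran from 14839758 to 22070373 per library, and levels are given in CPM (counts scaled to library size, normalised within each cohort). The targeted gene went against the genotype label in 3 libraries. Cpt1a ran from 34.0 to 52.7 CPM in the floxed cohort's other control libraries but was 20.3 and 16.2 CPM in the libraries labelled floxed TAC 2 and 3. It ran from 11.1 to 23.7 CPM in the other knockout libraries but was 46.3 CPM in the library labelled knockout sham 2. These 3 libraries and the 4 knockout TAC libraries also held 1.40 to 51.1 CPM of summed haemoglobin transcripts, against 293.9 CPM or more in the other 23. The same 7 libraries had a mean of 12 early response genes (Fos, Egr1 and others) of 6.80 to 8.32 in log2 CPM, against 2.60 to 3.47 in the other 9 libraries of the floxed cohort and 4.22 to 5.82 in the AAV9 cohort. In the AAV9 cohort, Cpt1a ran from 37.4 to 68.0 CPM after PBS and from 44.8 to 88.4 CPM after AAV9.Cpt1a. The library PBS sham 3 stood apart, with 2554 CPM over 23 other endothelial genes, against 1333 and 1344 CPM in the other PBS sham libraries, and with 23860 CPM over 6 cardiomyocyte genes. Cardiomyocyte genes (Myh6, Tnnt2 and others) summed to 39685 CPM or more elsewhere.

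Aplnr (ENSMUSG00000044338, chr2:85136225-85139923 in GRCm38, plus strand) encodes the receptor itself. It read 55.2, 34.2, 45.1 and 43.7 CPM in floxed sham and 37.4, 12.7, 8.96 and 61.6 CPM in floxed TAC. In knockout sham it read 45.9, 13.7, 44.6 and 42.5 CPM, and in knockout TAC 4.33, 1.73, 5.67 and 3.39 CPM. All 4 knockout TAC libraries lay below every other library of the study, and the 3 libraries labelled floxed TAC 2, floxed TAC 3 and knockout sham 2 were the next lowest. Group means were 44.6 ± 8.60 CPM in floxed sham, 30.1 ± 24.5 in floxed TAC, 36.7 ± 15.4 in knockout sham and 3.78 ± 1.66 in knockout TAC (SD, n = 4 each).

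These values chose the gene, so the folds that follow are descriptive. Knockout TAC was lower than knockout sham by a log2 fold change of -3.26 (SE 0.57) and lower than floxed TAC by -2.98 (SE 0.56). The difference between the TAC effects of the genotypes was -2.70 (SE 0.75). With a term for the haemoglobin-poor libraries the first 2 values were -1.62 and -1.61. Among haemoglobin-poor libraries alone they were -1.86 against the 1 knockout sham library and -1.53 against the 2 floxed TAC libraries. Without the 3 libraries whose Cpt1a went against the label they were -3.54 and -3.70. In the 9 haemoglobin-rich libraries of the cohort Aplnr ran from 34.2 to 61.6 CPM. No knockout TAC library was among them, so in that group genotype with load and the haemoglobin-poor state cannot be told apart.

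**Figure D1:**
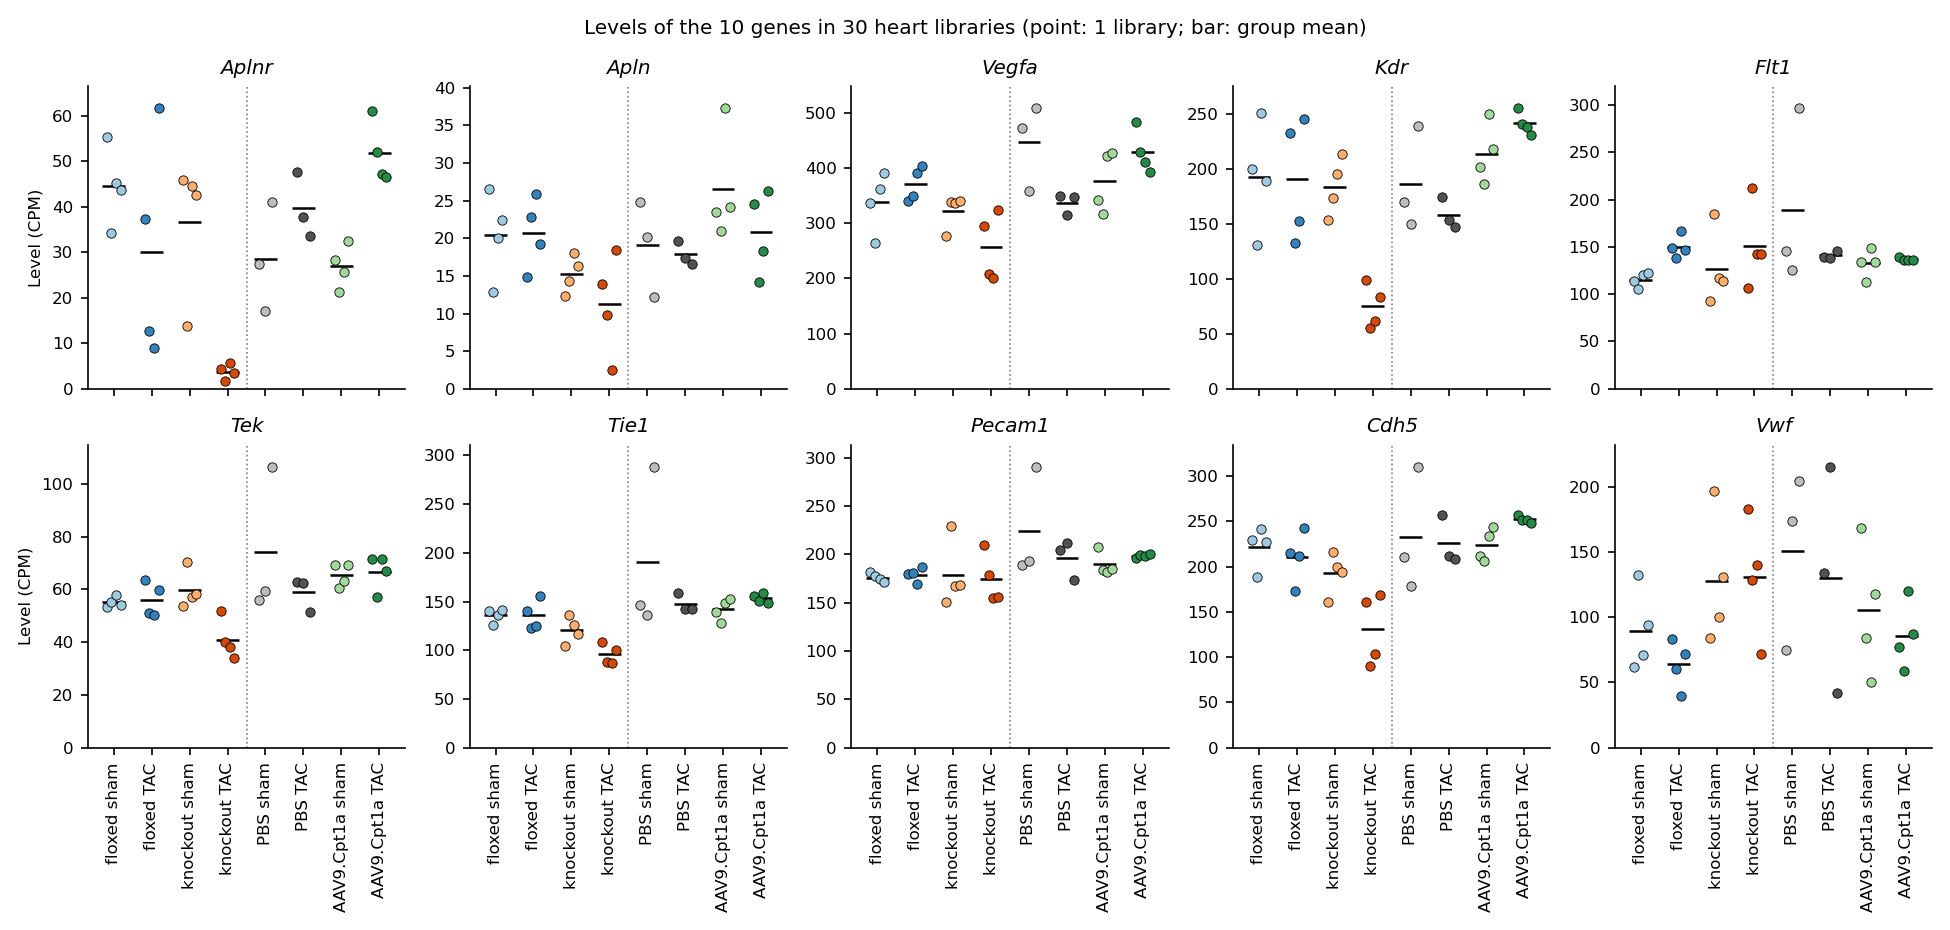
Levels (CPM, linear axis from 0) of the 10 genes in each library, by group; points are libraries, bars are group means, and the dotted line separates the floxed from the AAV9 cohort. Aplnr in the 4 knockout TAC libraries lies between 1.73 and 5.67 CPM, and Kdr there lies between 55.2 and 99.3 CPM.

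**Figure D2:**
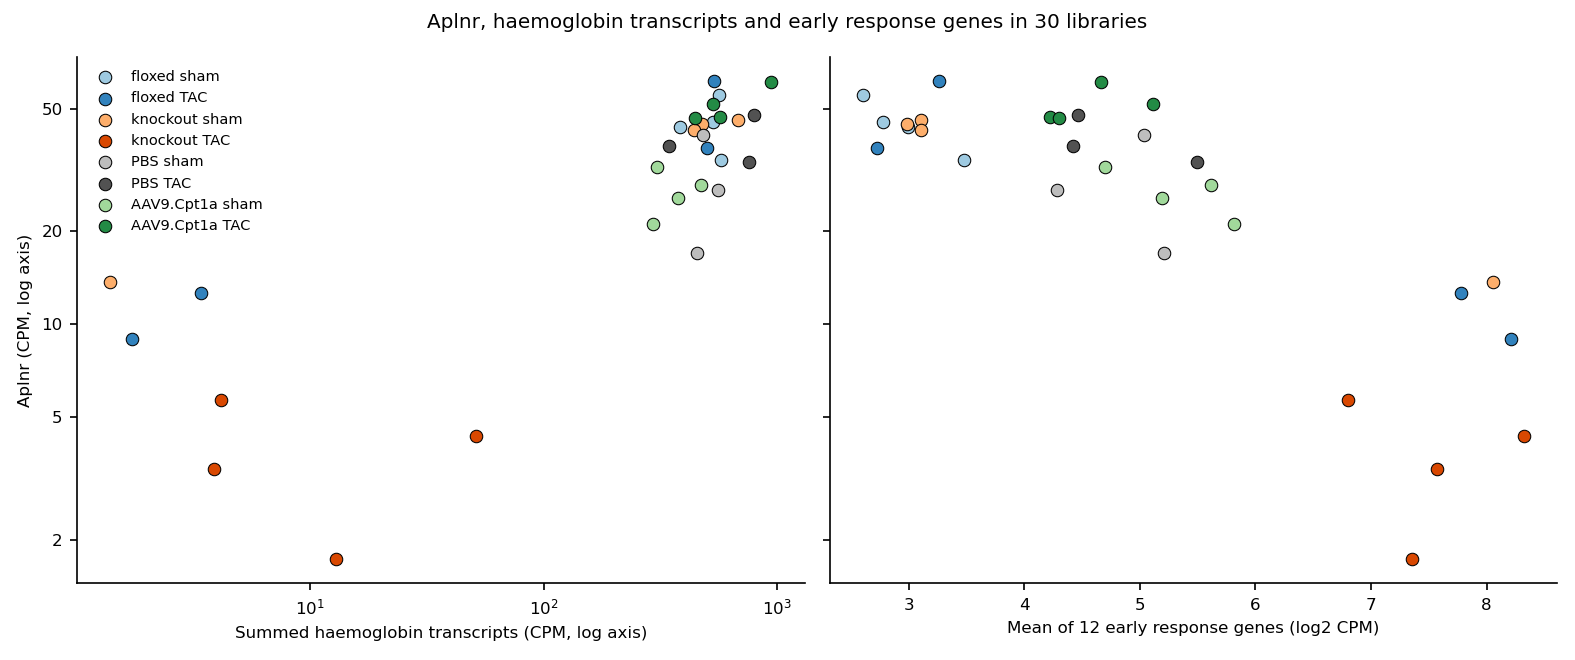
Aplnr (CPM, log axis) in 30 libraries against summed haemoglobin transcripts (CPM, log axis, left) and against the mean of 12 early response genes (log2 CPM, right); each point is 1 library, coloured by group. The 7 libraries at 51.1 CPM of haemoglobin or less have 13.7 CPM of Aplnr or less.

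In the AAV9 cohort, whose libraries played no part in the choice of Aplnr, the receptor was not lower after TAC. It read 27.4, 17.0 and 41.0 CPM in PBS sham and 47.7, 37.8 and 33.5 CPM in PBS TAC. It read 28.4, 21.2, 25.7 and 32.4 CPM in AAV9.Cpt1a sham and 61.0, 52.0, 47.2 and 46.6 CPM in AAV9.Cpt1a TAC. Every AAV9.Cpt1a TAC library was above every AAV9.Cpt1a sham library, whereas the PBS groups overlapped. Of all genes tested, 10.7% had no overlap between the AAV9.Cpt1a groups and 14.7% between the PBS groups. The TAC difference was 0.94 (SE 0.22) on the log2 scale with AAV9.Cpt1a and 0.48 (SE 0.26) with PBS. Neither passed edgeR's quasi-likelihood test after Benjamini-Hochberg adjustment over all genes (adjusted p = 0.218 and 0.320). Averaged over both injections (7 TAC and 7 sham libraries) it was 0.71 (SE 0.17), which did not pass either (edgeR adjusted p = 0.0661, unadjusted p = 0.000974). The average passed without PBS sham 1 (0.70, adjusted p = 0.0427) and without PBS sham 3 (0.89, adjusted p = 0.00541), and DESeq2 called both the average (adjusted p = 0.00426) and the AAV9.Cpt1a difference (adjusted p = 0.0135). Whether the TAC difference depended on the vector was tested as an interaction, 0.47 (SE 0.34, edgeR adjusted p = 0.705). Against this background, 5 of 15745 genes passed in PBS TAC against PBS sham (0.0318%), 1 in AAV9.Cpt1a TAC against sham (0.00635%), 1 in the interaction (0.00635%) and 143 in the average (0.908%).

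Set against other endothelial genes in the same library, Aplnr was higher after TAC in this cohort. Its log2 CPM minus the mean log2 CPM of Pecam1, Cdh5 and Tie1 was -2.07 ± 0.22 over 7 TAC libraries and -2.85 ± 0.24 over 7 sham libraries (SD). All 7 TAC libraries were above all 7 sham libraries. The difference of 0.77 had a p of 0.000583 by a two-sided exact permutation test over libraries, the smallest that 7 against 7 allows, and 0.00175 after adjustment over the 3 genes so tested. With Emcn, Egfl7 and Esam as the reference it was 0.87. The same ratio ran from -5.94 to -4.28 in knockout TAC, from -2.23 to -1.70 in floxed sham, and lay at -3.62, -4.18 and -3.77 in the libraries labelled floxed TAC 2, floxed TAC 3 and knockout sham 2. Early response genes and haemoglobin transcripts also differed between libraries of the AAV9 cohort. The early response mean had a median of 4.48 after TAC and 5.40 after sham with AAV9.Cpt1a, and 4.47 and 5.03 with PBS. The TAC and sham ranges overlapped with either injection. Summed haemoglobin was 444 to 943 CPM in AAV9.Cpt1a TAC and 293.9 to 473 CPM in AAV9.Cpt1a sham, with overlap. With PBS it was 344 to 791 CPM after TAC, a range that held all of the sham values (452 to 558 CPM). Atrial genes summed to 509, 2604 and 648 CPM in PBS sham and to 2.05, 1748 and 2.81 CPM in PBS TAC. They summed to 350, 2290, 60.0 and 2.12 CPM in AAV9.Cpt1a sham and to 1.80, 1.33, 734 and 1.87 CPM in AAV9.Cpt1a TAC. Most sham libraries of this cohort thus held more of them than most TAC libraries. The part of these genes in the result was not tested.

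**Figure D3:**
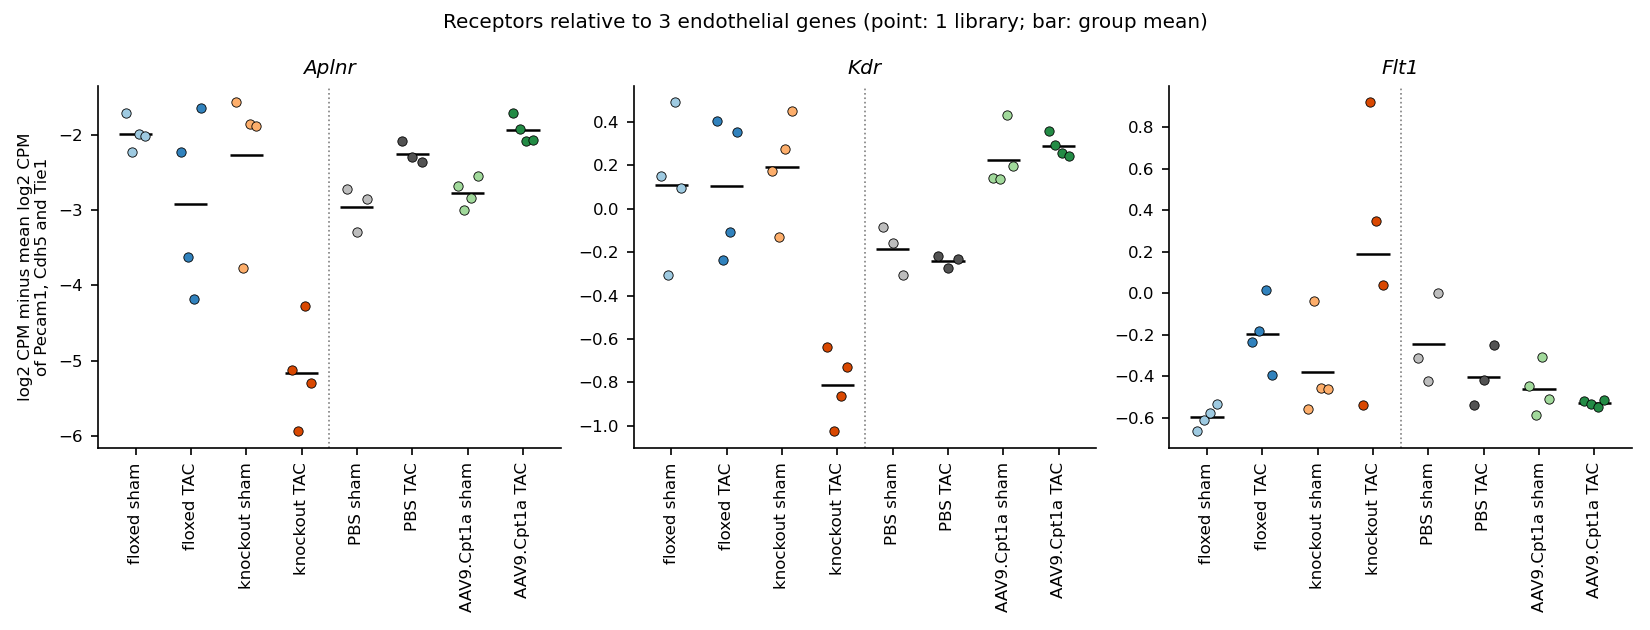
log2 CPM of Aplnr, Kdr and Flt1 minus the mean log2 CPM of Pecam1, Cdh5 and Tie1 in the same library; points are libraries, bars group means, and the dotted line separates the cohorts. For Aplnr the 7 TAC libraries of the AAV9 cohort lie above its 7 sham libraries, and the 4 knockout TAC libraries lie lowest.

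Apln (ENSMUSG00000037010, chrX:48025146-48034853, minus strand) encodes the apelin precursor and is known as a gene of vessel tip cells. It read 13.99, 9.84, 2.56 and 18.5 CPM in knockout TAC, 12.3, 14.3, 18.1 and 16.3 CPM in knockout sham, 14.9, 22.9, 25.8 and 19.2 CPM in floxed TAC and 26.6, 12.9, 20.0 and 22.4 CPM in floxed sham. The groups overlapped, and 1 knockout TAC library was far below the others. Knockout TAC differed from floxed TAC by -0.88 (SE 0.39) on the log2 scale, which did not pass (edgeR adjusted p = 0.141). In the AAV9 cohort Apln ran from 12.2 to 37.3 CPM after sham and from 14.2 to 26.3 CPM after TAC. Relative to the 3 endothelial genes it differed by -0.22 between TAC and sham (exact permutation p = 0.498, adjusted over 3 genes 0.584). Without PBS sham 3 that difference was -0.46 (exact permutation p = 0.0152). The receptor's second ligand gene Apela was too low to be tested.

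Vegfa (ENSMUSG00000023951, chr17:46016993-46032369, minus strand) encodes the growth factor read by Kdr and Flt1, and much of it in the heart is known to come from cardiomyocytes. It was 296, 208, 200.4 and 323 CPM in knockout TAC and 339, 349, 392 and 403 CPM in floxed TAC, without overlap (as in 13.5% of all genes tested). Against floxed TAC it was lower by 0.53 on the log2 scale (SE 0.16, edgeR adjusted p = 0.0382). Against knockout sham (277, 338, 337 and 340.5 CPM) the difference of -0.33 (SE 0.16) did not pass (edgeR adjusted p = 0.132). The call against floxed TAC was lost on leaving out floxed TAC 1, 3 or 4 or knockout TAC 2 or 3 (-0.58 to -0.43, edgeR adjusted p 0.0553 to 0.118), and the one against knockout sham appeared without knockout TAC 4 (-0.47, adjusted p = 0.0444). The call against floxed TAC was also lost with no filter on low counts (edgeR adjusted p = 0.0522) and without the libraries whose Cpt1a went against the label (0.0802). After PBS, Vegfa was lower with TAC (349, 314 and 347 CPM) than with sham (473, 358 and 508 CPM), a log2 difference of -0.41 (SE 0.17) that did not pass (edgeR adjusted p = 0.240). After AAV9.Cpt1a the difference was 0.19 (SE 0.15), with 484, 429.9, 410.5 and 393 CPM after TAC and 341, 317, 422 and 427 CPM after sham. The interaction of 0.60 (SE 0.23) did not pass (edgeR adjusted p = 0.688). AAV9.Cpt1a TAC lay above PBS TAC in every library, by 0.35 (SE 0.16), and this did not pass after adjustment over all genes (unadjusted p = 0.0474 in edgeR). Those groups did not overlap in 8.47% of all genes tested.

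The set holds 4 receptor tyrosine kinases. Sequences before the starts of 3 of them are shown because Kdr and Tek were lower in knockout TAC while Flt1 was not called. Tie1 was called lower as well, and its window is described below without being printed. Each is the 250 bases before the start in RefSeq (GRCm38.p6), 5′ to 3′ on the gene's strand, with capitals marking AGGAAG, a hexamer that holds the core bound by ETS factors, or its reverse complement CTTCCT. The table held a sequence for 6 of the 10 genes.
Kdr, chr5:75978456-75978705, minus strand: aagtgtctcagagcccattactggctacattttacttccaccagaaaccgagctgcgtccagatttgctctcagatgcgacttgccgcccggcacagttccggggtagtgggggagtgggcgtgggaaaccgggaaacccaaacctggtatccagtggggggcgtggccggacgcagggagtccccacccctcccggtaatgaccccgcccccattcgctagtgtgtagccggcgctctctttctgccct
Tek, chr4:94739039-94739288, plus strand: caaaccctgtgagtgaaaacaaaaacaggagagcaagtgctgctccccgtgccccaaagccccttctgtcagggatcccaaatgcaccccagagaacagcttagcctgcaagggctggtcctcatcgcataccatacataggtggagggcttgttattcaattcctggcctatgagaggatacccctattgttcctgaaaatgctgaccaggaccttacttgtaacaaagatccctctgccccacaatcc
Flt1, chr5:147726012-147726261, minus strand: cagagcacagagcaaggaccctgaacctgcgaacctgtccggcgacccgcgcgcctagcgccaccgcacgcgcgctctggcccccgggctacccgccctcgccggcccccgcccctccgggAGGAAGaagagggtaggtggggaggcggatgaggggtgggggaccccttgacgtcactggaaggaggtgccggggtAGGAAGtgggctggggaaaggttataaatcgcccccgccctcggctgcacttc
The hexamer occurred 2 times before Flt1 (129 and 53 bases before the start) and not in the windows of Kdr and Tek. Both of those windows do hold the shorter GGAA or its reverse complement TTCC, which was not marked. The Kdr window reaches 3 bases into its GENCODE gene. The Tie1 window lies mostly inside its GENCODE gene and is not printed, and it held the hexamer 1 time (219 bases before the start). The hexamer occurred in 29.5% of all 32851 windows of this length. ACGTG, a form of the core read by hypoxia-inducible factors, or its reverse complement CACGT, occurred in none of these 4 windows, Tie1 included. It occurred in 16.6% of all windows. The other form, GCGTG or its reverse complement CACGC, was not searched for or marked, and the printed Kdr and Flt1 windows hold it. GC content was 61.6% for Kdr, 51.2% for Tek, 60.4% for Tie1 and 70.4% for Flt1.

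Kdr (ENSMUSG00000062960, chr5:75932827-75978458, minus strand) encodes VEGF receptor 2, the main signalling receptor for the product of Vegfa. It read 99.3, 55.2, 61.5 and 83.4 CPM in knockout TAC and 154, 173, 195 and 213 CPM in knockout sham. In floxed TAC it read 232, 133, 152 and 245 CPM, and in floxed sham 200.1, 130.3, 251 and 189 CPM. Every knockout TAC library lay below every other library of the cohort. The gene fell by 1.30 on the log2 scale against knockout sham (SE 0.24, edgeR adjusted p = 0.00308) and by 1.35 against floxed TAC (SE 0.24, edgeR adjusted p = 0.00263). Of all genes tested, 23.1% had no overlap between knockout TAC and knockout sham and 13.5% between knockout TAC and floxed TAC. The difference between the TAC effects of the genotypes was -1.28 (SE 0.34), which did not pass in edgeR (adjusted p = 0.130), passed in DESeq2 (adjusted p = 0.0158) and passed in edgeR without knockout TAC 1 (-1.46, adjusted p = 0.0469). Without the 3 libraries whose Cpt1a went against the label the folds were -1.33 and -1.69 and the interaction passed (-1.64, edgeR adjusted p = 0.0170). With a haemoglobin term the fold against knockout sham was -0.95 and did not pass (edgeR adjusted p = 0.0743), while that against floxed TAC was -1.08 and did (adjusted p = 0.0181). Kdr in the libraries labelled floxed TAC 2 and 3 and knockout sham 2 was 133, 152 and 173 CPM. The first 2 lay below floxed TAC 1 and 4, and all 3 lay below every floxed sham library except floxed sham 2 (130.3 CPM), which held 2800 CPM of 3 atrial genes. The part of the haemoglobin-poor state was not tested beyond the fits above.

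In the AAV9 cohort the TAC difference of Kdr, averaged over both injections, was -0.03 on the log2 scale (SE 0.11) and did not pass (edgeR adjusted p = 0.896). It read 255, 241, 238.2 and 231 CPM in AAV9.Cpt1a TAC and 174, 153 and 147 CPM in PBS TAC, without overlap (as in 8.47% of all genes tested). That difference of 0.61 (SE 0.16) had an unadjusted p of 0.00225 and an adjusted p of 0.758 in edgeR, so it did not pass. In that comparison 6 of 15745 genes passed (0.0381%), and in AAV9.Cpt1a sham against PBS sham 2 did (0.0127%).

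Flt1 (ENSMUSG00000029648, chr5:147561604-147726011, minus strand) encodes VEGF receptor 1, which binds the same ligand and, in its soluble form, is known as a decoy. It read 106, 213, 142 and 142 CPM in knockout TAC and 92.7, 184, 117 and 114 CPM in knockout sham. The 2 groups overlapped, with a log2 difference of 0.25 (SE 0.20, edgeR adjusted p = 0.375). All 4 floxed TAC libraries (149, 138, 166 and 146 CPM) lay above all 4 floxed sham libraries (114, 106, 119.8 and 122 CPM), including the 2 whose haemoglobin was high. That difference of 0.38 (SE 0.20) did not pass (edgeR adjusted p = 0.491). Of all genes tested, 6.03% had no overlap between floxed TAC and floxed sham.

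Tek (ENSMUSG00000006386, chr4:94739289-94874976, plus strand) encodes the angiopoietin receptor. It was 51.7, 40.1, 38.1 and 34.1 CPM in knockout TAC, below all of knockout sham (53.7, 70.4, 57.1 and 58.4 CPM). The fall was 0.55 on the log2 scale (SE 0.13, edgeR adjusted p = 0.00852). Against floxed TAC (63.4, 51.0, 50.2 and 59.9 CPM) it was 0.45 (SE 0.13, edgeR adjusted p = 0.0271), a call lost without floxed TAC 1 or 4 or knockout TAC 2, 3 or 4 (-0.45 to -0.38, edgeR adjusted p 0.0544 to 0.0834). The interaction of -0.57 (SE 0.18) did not pass (edgeR adjusted p = 0.189) except without knockout TAC 1 (-0.71, adjusted p = 0.0415).

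Tie1 (ENSMUSG00000033191, chr4:118471191-118490061, minus strand) encodes the related receptor that modulates Tek. It was 109, 88.2, 87.3 and 100.1 CPM in knockout TAC, 104, 136, 126 and 117 CPM in knockout sham and 139.9, 123, 124 and 156 CPM in floxed TAC. The log2 difference was -0.50 against floxed TAC (SE 0.11, edgeR adjusted p = 0.00854), where the groups did not overlap, and -0.33 against knockout sham (SE 0.11, edgeR adjusted p = 0.0403), where they did. The second call was lost without knockout sham 2, 3 or 4 or knockout TAC 2 or 3 (-0.35 to -0.27, edgeR adjusted p 0.0657 to 0.117). It was also lost with a replicate block (edgeR adjusted p = 0.0530), with no filter on low counts (0.0797), in a fit of all 30 libraries (0.126) and without the libraries whose Cpt1a went against the label (0.0781).

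Pecam1 (ENSMUSG00000020717, chr11:106654217-106750628, minus strand), the gene of the junction protein CD31 and the usual count of endothelium, was not called in either comparison. It was 209.9, 179, 155 and 156 CPM in knockout TAC, 151, 229.9, 167 and 169 CPM in knockout sham and 179.9, 181, 169 and 187 CPM in floxed TAC. The log2 differences were -0.03 in both comparisons (SE 0.13 each, edgeR adjusted p = 0.867 and 0.877). In bulk tissue, fewer cells of a type and less RNA per cell cannot be told apart.

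Cdh5 (ENSMUSG00000031871, chr8:104101625-104144511, plus strand) encodes VE-cadherin of the endothelial junction. It was 161, 89.9, 104 and 169 CPM in knockout TAC, 161, 216, 200.2 and 194 CPM in knockout sham and 215, 173, 212 and 243 CPM in floxed TAC. The falls were 0.56 (SE 0.18, edgeR adjusted p = 0.0366) and 0.69 (SE 0.18, edgeR adjusted p = 0.0223). The first was lost without knockout sham 2, 3 or 4 or knockout TAC 2 or 3 (-0.56 to -0.42, edgeR adjusted p 0.0721 to 0.116) and without the libraries whose Cpt1a went against the label (-0.51, 0.0838), and the second without floxed TAC 1 or 4 or knockout TAC 2 or 3 (-0.68 to -0.55, edgeR adjusted p 0.0515 to 0.0787).

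Vwf (ENSMUSG00000001930, chr6:125546774-125686679, plus strand), the gene of von Willebrand factor, a clotting protein rich in veins and endocardium, was the one gene of the set called higher. It was 183, 129, 140.0 and 71.8 CPM in knockout TAC and 83.2, 60.2, 39.7 and 72.2 CPM in floxed TAC, with overlap. The difference was 1.04 on the log2 scale (SE 0.33, edgeR adjusted p = 0.0468), and the call was lost on leaving out any 1 library of either group except knockout TAC 4 (0.82 to 1.18, edgeR adjusted p 0.0558 to 0.109). Atrial genes (Myl7, Myl4 and Sln) summed to 8480 CPM in knockout TAC 1, which also had the highest Vwf of its group, to 3.63 to 6.76 CPM in the other 3 knockout TAC libraries and to 1.71 to 202 CPM in floxed TAC. Without knockout TAC 1 the difference was 0.82 (edgeR adjusted p = 0.0852), and the part of atrial tissue in it was not tested. The call was also lost in a fit of all 30 libraries (1.01, edgeR adjusted p = 0.0992) and without the libraries whose Cpt1a went against the label (0.74, edgeR adjusted p = 0.1495). Against knockout sham (84.3, 197, 100.3 and 131 CPM) it was 0.03 (SE 0.32, edgeR adjusted p = 0.952).

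**Figure D4:**
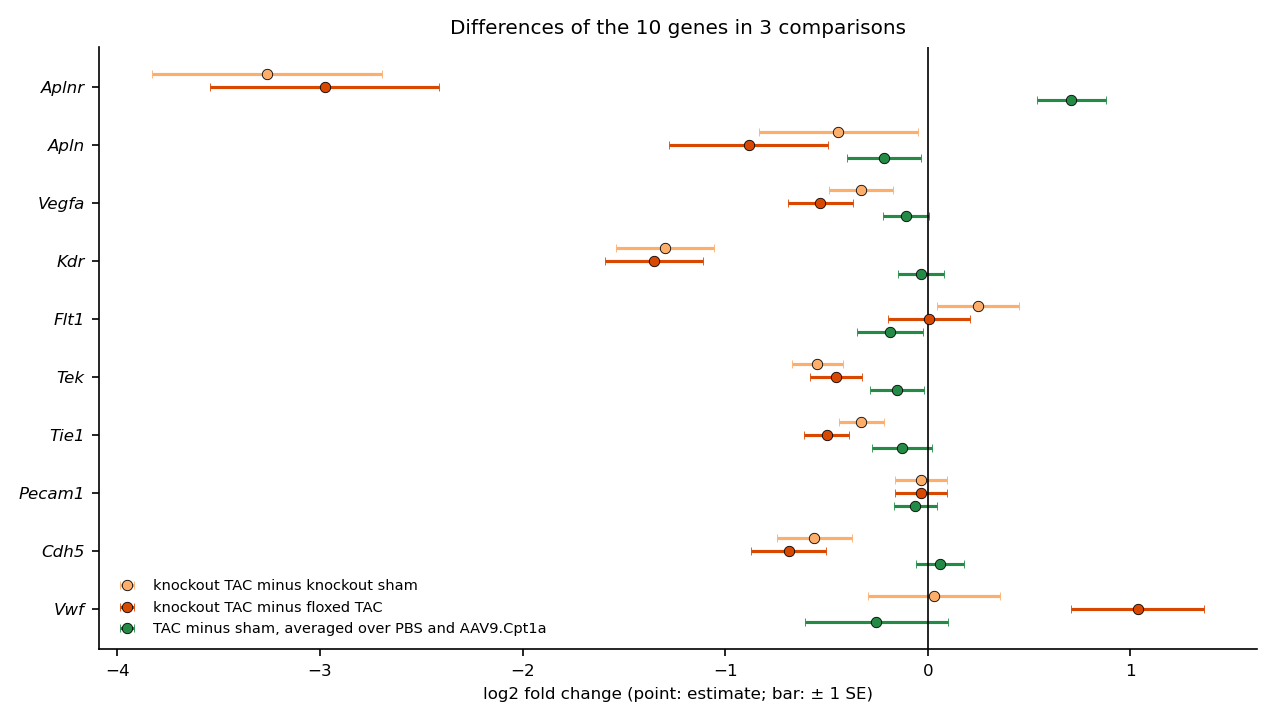
log2 fold changes (points) with 1 SE (bars) of the 10 genes in knockout TAC against knockout sham, knockout TAC against floxed TAC, and TAC against sham averaged over PBS and AAV9.Cpt1a. Kdr lies at -1.30 and -1.35 in the first 2 and at -0.03 in the third, and Pecam1 lies at -0.03, -0.03 and -0.06.

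Counted over the 9 genes other than Aplnr, 4 were called in knockout TAC against knockout sham, all lower (Kdr, Tek, Cdh5 and Tie1). Of all 15596 genes tested, 25.8% were called there, 14.3% higher and 11.5% lower. Against floxed TAC, 6 of the 9 were called, 5 lower (Kdr, Tie1, Cdh5, Tek and Vegfa) and 1 higher (Vwf). There 14.3% of all genes were called, 7.53% higher and 6.8% lower. The comparisons share the knockout TAC libraries. With a term for haemoglobin-poor libraries, 0 of 9 stayed past the threshold in edgeR against knockout sham and 2 of 9 against floxed TAC (Kdr and Tie1). Among haemoglobin-poor libraries alone, none of the 9 was called in edgeR, with only 1 knockout sham and 2 floxed TAC libraries left. The folds there were -1.22 and -0.96 for Kdr, -0.79 and -0.33 for Tek, -0.51 and -0.39 for Tie1 and -0.74 and -0.58 for Cdh5.

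The remaining comparisons called none of the 10 genes in edgeR. In floxed TAC against floxed sham and in knockout sham against floxed sham, 0% of all genes were called in edgeR (1733 and 814 genes at an unadjusted p under 0.05, and 161 and 1 genes by DESeq2), and 0 of the 10 had an unadjusted p under 0.05. In the genotype interaction 0 of 9 were called, 2 (Kdr and Tek) had an unadjusted p under 0.05, and 1 was called by DESeq2, against 0.0449% of all genes called in edgeR. In the AAV9 cohort 0 of 10 were called in each comparison. At an unadjusted p under 0.05 there was 1 gene for PBS TAC against sham (Vegfa), 1 for AAV9.Cpt1a TAC against sham (Aplnr), 1 for AAV9.Cpt1a sham against PBS sham (Flt1), 2 for AAV9.Cpt1a TAC against PBS TAC (Vegfa and Kdr) and 1 for the interaction (Vegfa).

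The 23 other endothelial genes were mostly not called. In knockout TAC against knockout sham the median log2 difference was -0.12 (all genes 0.02). In edgeR 3 of 23 were lower and 0 higher, against 11.5% and 14.3% of all genes tested. The 3 were Myct1 (-1.02, SE 0.23, edgeR adjusted p = 0.00840), Egfl7 (-0.88, SE 0.27, adjusted p = 0.0277), a secreted vessel protein, and Sox18 (-1.37, SE 0.45, adjusted p = 0.0352), an endothelial transcription factor. Against floxed TAC, 2 of 23 were lower (Fli1, an ETS factor, by 0.55, and Myct1, by 0.92) and 0 higher. There 6.8% of all genes were called lower and 7.53% higher. Emcn, Esam and Nos3 were not called in either comparison. The summed level of the 23 genes was 1030 to 1259 CPM in knockout TAC, within 1059 to 1373 CPM in knockout sham but for the lowest library, and 1205 to 1308 CPM in floxed TAC. In the average TAC effect of the AAV9 cohort, 1 of 23 was called in edgeR (S1pr1, a sphingosine phosphate receptor, lower by 0.63, adjusted p = 0.0293). There 0.908% of all genes were called. Sox18 was 0.73 higher (SE 0.14) in AAV9.Cpt1a TAC than in AAV9.Cpt1a sham, without overlap (as in 10.7% of all genes tested), and did not pass (edgeR adjusted p = 0.136).

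Of 5 genes of endothelial activation, some were called in 1 of the 2 comparisons. In knockout TAC against knockout sham 4 of the 5 were higher in edgeR (14.3% of all genes), with a median log2 difference of 4.31. They were Selp and Sele, which encode selectins that catch leukocytes, and Icam1 and Vcam1, which encode adhesion molecules for them. Icam1 ran from 387 to 1343 CPM in knockout TAC and from 13.6 to 103.5 CPM in knockout sham (log2 difference 4.61, SE 1.21, edgeR adjusted p = 0.0150). Vcam1 ran from 140.5 to 727 CPM against 16.8 to 96.4 CPM (3.51, SE 0.79, edgeR adjusted p = 0.00747). Against floxed TAC, 0 of 5 were called in edgeR, with all 5 estimates above 0 and unequal spread: the summed level ran from 41.7 to 1787 CPM in floxed TAC and from 752 to 2372 CPM in knockout TAC. It ran from 33.2 to 98.8 CPM in all groups of the AAV9 cohort and floxed sham. The fall of Kdr and the rise of these 4 genes against knockout sham were found in the same 4 libraries that carried high early response genes and little haemoglobin, and their part in either result was not tested.

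Beside the counts that follow, 25.8% of all genes were called in knockout TAC against knockout sham and 14.3% against floxed TAC. Among 7 other genes of the VEGF pathway, 1 was called in knockout TAC against knockout sham. This was Pgf, the placental growth factor read by Flt1 (a mean of 27.6 against 6.45 CPM, edgeR adjusted p = 0.0233). Vegfb, Vegfc, Vegfd, Flt4, Nrp1 and Nrp2 were not called there, and against floxed TAC 0 of the 7 were called in edgeR. In the angiopoietin pathway, 4 other genes were tested and 1 was called in both comparisons, Svep1, which encodes a matrix protein that binds Tie1 (a mean of 51.7 CPM in knockout TAC against 18.2 CPM in knockout sham and 24.9 CPM in floxed TAC, edgeR adjusted p = 0.00166 and 0.0102). The ligands Angpt1 and Angpt2 were not called. In the apelin pathway, 9 other genes were tested. Mme, which encodes the peptidase neprilysin that cleaves apelin, was lower by 2.33 and 2.44 (SE 0.53 and 0.54, edgeR adjusted p = 0.00819 in both). Klf2, Klf4 and Nos3, known as outputs of flow and apelin signalling, were not called.

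In the lists of endothelial subtypes some genes were called. Of all genes, 25.8% were called in knockout TAC against knockout sham and 14.3% in knockout TAC against floxed TAC. Of venous genes other than the members, Ephb4 was lower by 0.71 and Ackr1 higher by 1.76 in knockout TAC against knockout sham, with Ackr1, named after its value was seen, at a mean of 1.27 CPM or less in every group. Of 7 arterial genes 0 were called in edgeR in either comparison. Of 10 Notch genes 1 was called in each, Jag2 (lower by 0.63 and 0.65). Of the endocardial genes, Nfatc1 was 1.56 higher against knockout sham and Plvap 2.19 higher against floxed TAC, beside the atrial genes of knockout TAC 1 given above. Lymphatic Prox1 was lower by 0.70 and 0.51 and Pdpn higher by 1.51 and 1.30, and both are also made by other cells of the heart. Of 9 tested hypoxia targets, Slc2a1, the glucose transporter gene, was 1.12 and 1.16 higher and Adm was 1.04 higher against knockout sham, while Vegfa, in the same list, was lower against floxed TAC. Of 6 pericyte genes, 2 were lower against knockout sham (Abcc9 by 1.39 and Kcnj8 by 1.02) and 4 against floxed TAC (Abcc9, Kcnj8, Vtn and Rgs5), while Pdgfrb and Cspg4 were not called in either. Fibroblast genes Dcn and Col1a1 were higher in both, and their list summed to 1266 to 1451 CPM in knockout TAC against 671 to 957 CPM in knockout sham and 726 to 829 CPM in floxed TAC. Smooth muscle and platelet lists overlapped between these groups, and the part of any of these cell types in the falls was not tested.

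Per kilobase of exon, levels can be compared between genes. The order depends on the length used, here all exons of a gene together. In floxed sham Vegfa stood at 79.0 ± 12.7 CPM per kb, Cdh5 at 52.7 ± 5.50, Pecam1 at 28.3 ± 0.730, Tie1 at 27.6 ± 1.42 and Kdr at 21.3 ± 5.47 (SD, n = 4). Below them came Aplnr at 12.1 ± 2.32, Tek at 11.7 ± 0.427, Flt1 at 8.53 ± 0.542, Apln at 6.50 ± 1.82 and Vwf at 5.59 ± 1.97. Pecam1 and Tie1, Tie1 and Kdr, Kdr and Aplnr, Aplnr and Tek, Flt1 and Apln, and Apln and Vwf overlapped in range, and the other neighbours did not. In knockout TAC, Aplnr was last at 1.02 ± 0.448 CPM per kb and Kdr, at 8.29 ± 2.24, overlapped Flt1, Tek and Vwf, whereas in floxed sham Kdr was above all 3 in every library. With the longest transcript as length, 6 of the 10 means in floxed sham moved by more than 1 SD. These were Vegfa (98.1 CPM per kb), Pecam1 (51.2), Kdr (32.5), Tie1 (32.1), Flt1 (16.7) and Vwf (10.2), while Tek, at 11.9, was not among them. Kdr then passed Tie1, Flt1 passed Aplnr and Tek, and Vwf passed Apln. In AAV9.Cpt1a TAC, Aplnr stood at 13.97 ± 1.81 CPM per kb, beside Tek at 14.2 ± 1.45 with overlap. It lay above Flt1 (10.1 ± 0.101) in every library with all exons as length and below Flt1 (19.8 ± 0.197) in every library with the longest transcript.

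**Figure D5:**
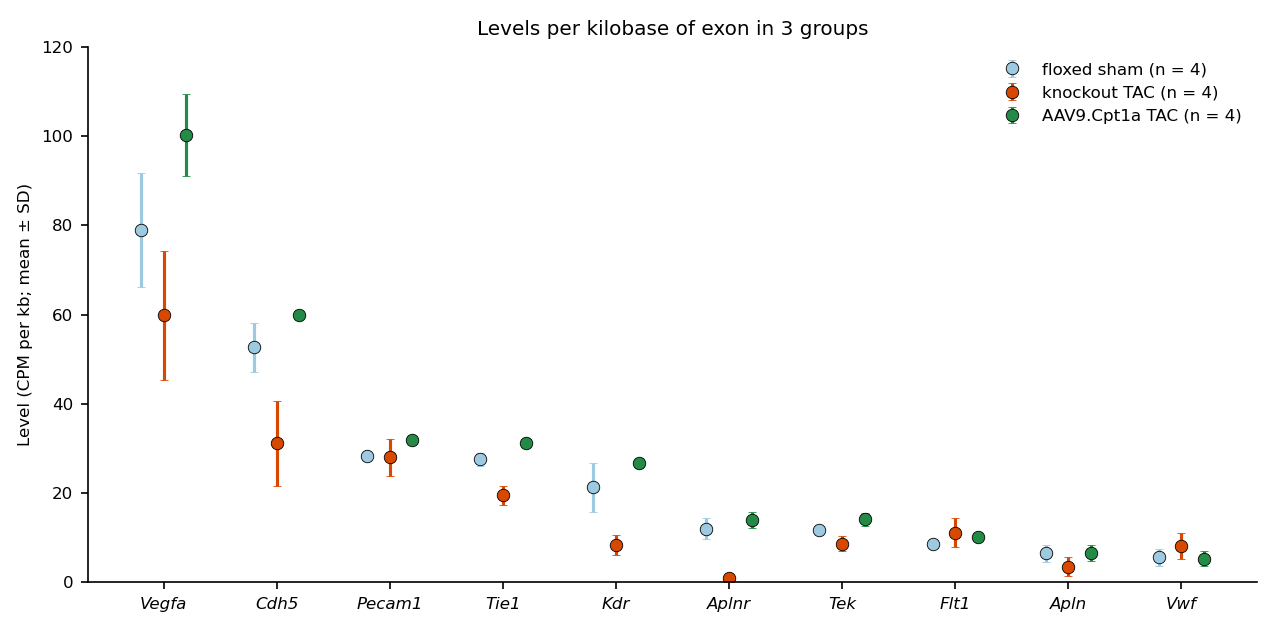
Levels per kilobase of exon (CPM per kb, linear axis from 0; mean and SD of 4 libraries) in floxed sham, knockout TAC and AAV9.Cpt1a TAC. Aplnr is 12.1, 1.02 and 13.97 CPM per kb in these groups, while Pecam1 is 28.3, 28.1 and 31.9.

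The genes whose 8 group means were most like those of Aplnr were Gm38102 (root mean square log2 difference 0.338), Gm49130 (0.343), A930016O22Rik (0.363), Aqp7 (0.380) and Hic1 (0.393), among 11353 genes compared and with each gene centred on its own mean. Aplnr itself varied with an SD of 1.12 over the 8 means. Gm38102 was low, with a mean of 5.10 CPM or less in every group. Exons of Gm49130 overlap those of Myh6 on the opposite strand, and the strand setting is not given. Whether its counts hold Myh6 reads was not tested. All 5 genes most like Aplnr had their lowest mean in knockout TAC, the group on whose low values Aplnr was chosen. Most like Apln were Tmem266 (0.0921), 2310039L15Rik (0.108) and Hspa12a (0.124). These are descriptions over 8 means.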

How the data were processed

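Mouse heart RNA was sequenced as 30 poly(A) libraries in paired reads of 100 bases, per the labels' protocols. The submitters' processing notes name HISAT2 2.1.0, featureCounts, Subread 1.5.1 and GRCm38, and the authors deposited whole-number counts per gene. The strand setting and annotation release are not given in the sources used here. Rows without a matched symbol held 0.0192% of counts.

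Each cohort was fitted apart with edgeR 4.0.16 (TMM scaling, filterByExpr, quasi-likelihood F test, 1 mean per group), and Benjamini-Hochberg adjustment ran over all genes tested, with calls at an adjusted p under 0.05. Log2 CPM used a prior count of 2. DESeq2 1.42.0, other scalings and filters, a haemoglobin term, subsets of libraries and leaving out each library were tried as alternatives. The fit was tested on simulated counts. The members and lists were chosen with earlier results of these data known. All members were named; of the other lists, genes were named when called at 5 CPM or more, up to 4 per list and comparison by p, and the genes most like Aplnr and Apln by the smallest root mean square difference. The cutoff of 30 CPM for Cpt1a was chosen after seeing the data. Work on miR370 was not analysed here. The result of 1 gene in the lists is not reported here.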

Additional observations from a re-analysis of the deposited data

Results flagged for a closer look

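Over 60 sets of 4 libraries, each 1 gene in 1 group, 3 had a highest or lowest library far from the others. Chance gives about 1 in 20, so this is no more than chance would give. The sets share libraries and are not independent. Aplnr was lowest at 13.7 CPM in the library labelled knockout sham 2, whose Cpt1a also went against its label. Pecam1 was highest at 208 CPM in AAV9.Cpt1a sham 1. Vegfa was lowest at 277 CPM in knockout sham 1.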

How the results depend on the processing

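With DESeq2 the number of genes called was 161 for floxed TAC against floxed sham, 1 for knockout sham against floxed sham, 373 for the genotype interaction, 344 for PBS TAC against sham, 94 for AAV9.Cpt1a TAC against sham, 303 for AAV9.Cpt1a sham against PBS sham, 27 for AAV9.Cpt1a TAC against PBS TAC, 16 for the vector interaction and 680 for the averaged TAC effect. In the same order without the second and last, a fit of all 30 libraries gave 27, 52, 16, 2, 171, 0 and 0. Without a filter the last 7 of the first list gave 17, 112, 29, 182, 14, 5 and 329. With a replicate block, 19 were called in the genotype interaction, 2 in PBS TAC, 0 in AAV9.Cpt1a TAC against sham, 0 in AAV9.Cpt1a sham against PBS sham, 2 in the vector interaction and 24 in the average. Same-numbered libraries correlated from -0.373 to 0.454 in the floxed and from -0.408 to 0.396 in the AAV9 cohort, so the numbers do not pair them. A haemoglobin term left 273 genes in knockout TAC against knockout sham, 1127 against floxed TAC and 0 in the interaction, and haemoglobin-poor libraries alone left 1 and 0, with fewer samples. Without the libraries whose Cpt1a went against the label, chosen after seeing the data, 3663 were called against floxed TAC and 825 in the interaction. Of the members, the haemoglobin term left 0 and 2, haemoglobin-poor libraries alone 0 and 0, and the Cpt1a selection 2 against knockout sham and 1 in the interaction. DESeq2 called 1 member in the interaction, 1 in AAV9.Cpt1a TAC against sham and 1 in the average; all 30 libraries together called 1 in the interaction, and no filter 1 in the average. Where not stated, the cause was not tested.

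Leaving out 1 library at a time, genes called ranged from 0 to 27 in floxed TAC against sham, 0 to 215 in the genotype interaction, 1124 to 3845 in knockout TAC against floxed TAC, 1956 to 6441 against knockout sham, 0 to 1796 in PBS TAC, 1 to 2821 in AAV9.Cpt1a sham against PBS sham, 0 to 1 in the vector interaction, 15 to 1155 in the average, 1 to 8 in AAV9.Cpt1a TAC against PBS TAC and 0 to 2 against AAV9.Cpt1a sham. Members called ranged from 0 to 2 in the genotype interaction, 2 to 5 against floxed TAC, 2 to 5 against knockout sham and 0 to 1 in the average, and the Apln ratio from -0.46 to -0.084. DESeq2's size factors moved no count by over 1.5 times, and no difference called in the member genes changed its sign under the alternatives run, though differences that were not called did. The order of levels per kilobase did change with the length used.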
